A study of Homo sapiens with 30 samples.

Results

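The neutrophil-attracting CXC chemokines CXCL1, CXCL2, CXCL3, CXCL5, CXCL6 and CXCL8 were followed in the cell line hCMEC/D3, human endothelium of brain microvessels that has been immortalised and is grown to model the barrier between blood and brain. The 6 genes were taken by symbol from the 63138 genes of the deposited count table, and each symbol had 1 row. The table held 30 RNA-seq libraries in 10 groups of 3. In the 5 direct groups, cells were kept for 12 h in serum-free medium alone (Control) or with 1 added agent. The agents were TNFα (25 ng/mL), IL-1β (10 ng/mL), the complement fragment C5a (50 ng/mL) and epinephrine (200 nM). In the other 5 groups, cells of the same line were given extracellular vesicles that had been enriched from media of cells treated in these ways, and these groups are called EV-Control, EV-TNFα, EV-IL-1β, EV-C5a and EV-Epinephrine. The labels give 12 h for these 5 groups too, and they do not state the amount of vesicles given. All cells were of 1 established line, and the labels do not say whether the 3 libraries of a group came from separate cultures, so p-values measure only the spread between these libraries.

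These chemokines carry the amino acids Glu-Leu-Arg ahead of their CXC motif and call neutrophils out of the blood through the receptors CXCR1 and CXCR2. CXCL8 and CXCL6 act on both receptors, while CXCL1, CXCL2, CXCL3 and CXCL5 act mainly on CXCR2. Endothelium under inflammatory stimulation makes these proteins and displays them on heparan sulphate at its luminal face, where rolling neutrophils meet them. Their genes are textbook targets of NF-κB, and their mRNAs carry AU-rich elements that make them short-lived unless decay is slowed.

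Library totals ran from 16643961 to 22112326 counts. The 7 endothelial markers examined all reached 1 CPM somewhere, with a summed level of 584 to 977 CPM over the single libraries. Of the pericyte markers, 2 of 3 were detected and summed to 40.3 to 96.8 CPM, PDGFRB among them at a mean of 68.1 CPM in Control and 35.1 CPM in TNFα. The astrocyte marker AQP4 was at 0 in all libraries, and the summed astrocyte, leukocyte and epithelial markers stayed at or below 6.56 CPM. The part of marker levels in the results was not tested. In bulk RNA, a change in the number of expressing cells and a change in RNA per cell cannot be told apart. Levels are in CPM, the counts of a gene per 1000000 counts of the library after TMM scaling. Differences are log2 fold changes ± SE from the quasi-likelihood test of edgeR, with p-values adjusted by Benjamini-Hochberg over all genes of a fit. A gene passed, and is said to have risen or fallen, at an adjusted p under 0.05.

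All 6 genes lie on chromosome 4 within 358.8 kb (GRCh38, GENCODE 29). From the low coordinates up, CXCL8 (ENSG00000169429) spans chr4:73740506-73743716, CXCL6 (ENSG00000124875) chr4:73836497-73849064 and CXCL1 (ENSG00000163739) chr4:73869393-73871242, all on the plus strand. CXCL5 (ENSG00000163735) spans chr4:73995642-73998779, CXCL3 (ENSG00000163734) chr4:74036589-74038807 and CXCL2 (ENSG00000081041) chr4:74097035-74099293, all on the minus strand. No annotated gene overlapped a member on the opposite strand, and CXCL6 overlapped the pseudogene PPBPP1 on its own strand. Of all windows of 50 bases in the transcripts of CXCL2, 12.5% also occur in CXCL1 or CXCL3. For CXCL1, 4.81% occur in CXCL2 or CXCL3, and for CXCL3, 6.01% occur in CXCL1 or CXCL2. CXCL6 shared 2.16% with the pseudogene PPBPP1 only, CXCL5 1.12% with the gene GLYR1 only, and CXCL8 0% with any gene. Values of CXCL1, CXCL2 and CXCL3 are therefore uncertain to the extent that the counting could have split or dropped shared reads.

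The promoters of the 6 genes are shown because each holds the NF-κB motif GGAATTTCC, beginning 77 to 91 bases before the start. The RefSeq sequences (GRCh38.p14) below run 5′ to 3′ on the strand of the gene, from 140 to 31 bases before the RefSeq start. Capitals mark GGAATTTCC and, in CXCL8, a match to the AP-1 motif TGANTCA.
CXCL1, chr4:73869253-73869362, plus strand: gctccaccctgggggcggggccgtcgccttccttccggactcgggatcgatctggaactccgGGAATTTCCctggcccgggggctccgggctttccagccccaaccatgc
CXCL2, chr4:74099226-74099335, minus strand: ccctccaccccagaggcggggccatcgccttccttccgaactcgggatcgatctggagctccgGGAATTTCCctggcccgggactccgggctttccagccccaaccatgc
CXCL3, chr4:74038720-74038829, minus strand: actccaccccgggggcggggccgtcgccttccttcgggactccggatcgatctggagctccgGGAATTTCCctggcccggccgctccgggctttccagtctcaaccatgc
CXCL5, chr4:73998708-73998817, minus strand: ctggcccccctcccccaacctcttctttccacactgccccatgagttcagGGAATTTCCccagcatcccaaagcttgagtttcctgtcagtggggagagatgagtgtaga
CXCL6, chr4:73836538-73836647, plus strand: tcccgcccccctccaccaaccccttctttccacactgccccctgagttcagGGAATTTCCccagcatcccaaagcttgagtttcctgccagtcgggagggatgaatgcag
CXCL8, chr4:73740429-73740538, plus strand: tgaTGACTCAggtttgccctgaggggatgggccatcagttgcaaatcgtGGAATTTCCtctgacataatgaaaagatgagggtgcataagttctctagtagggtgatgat

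The motif GGAATTTCC, searched on both strands in the 300 bases from 250 before to 50 after the start, was present in 6 of 6 members and in 0.461% of 35116 RefSeq promoters of that length (162 promoters). Its first base stood 77 or 78 bases before the start in CXCL1, CXCL2 and CXCL3, and 89 to 91 bases before it in CXCL5, CXCL6 and CXCL8. The stretches shown are nearly alike in letters among CXCL1, CXCL2 and CXCL3, and between CXCL5 and CXCL6. The 6 members are thus not 6 independent cases beside the share over all promoters. The looser form GGNNTTTCC, which includes GGAATTTCC, occurs in 6.26% of all promoters. A second match to it, GGGCTTTCC, begins 53 bases before the start in CXCL1, CXCL2 and CXCL3. CXCL8 held a match to TGANTCA 137 bases before its start, a motif found in 7.71% of promoters and in none of the other 5 members. The CRE motif TGACGTCA (1.85% of promoters) was in none of these windows, and the C/EBP motif TTGCNNAA (10.5%) was in CXCL2, on the opposite strand, from 188 bases before the start. These are matches of letters, and no binding was measured here.

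In Control the 6 genes fell into an abundant and a scarce set. Per kilobase of exon, the mean level was 103 ± 9.80 CPM per kb for CXCL1, 75.4 ± 15.3 for CXCL2 and 50.2 ± 14.1 for CXCL8 (SD, n = 3). The other 3 were far lower, with 2.03 ± 0.130 CPM per kb for CXCL6, 1.96 ± 0.450 for CXCL3 and 0.654 ± 0.151 for CXCL5. Libraries of CXCL1 and CXCL2 did not overlap in this measure, whereas CXCL2 and CXCL8 overlapped, as did CXCL6 and CXCL3. Within Control, library 3 was the highest for 5 of the 6 genes and library 2 the lowest for 5.

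**Figure D1:**
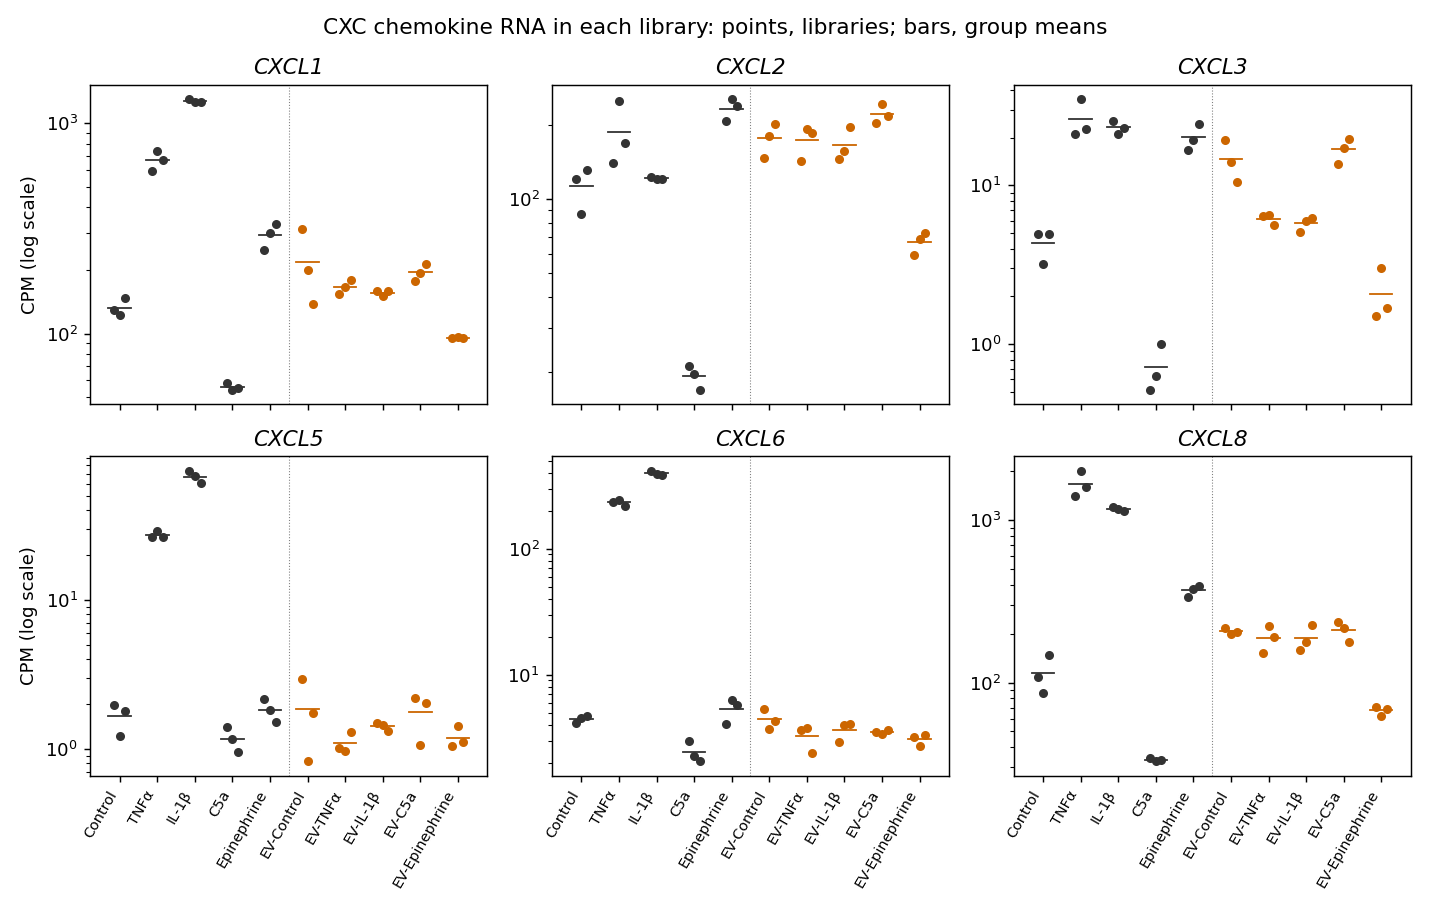
Level (CPM, log scale) of the 6 chemokine genes in each of the 30 libraries, with direct groups in black and vesicle groups in orange. CXCL5 and CXCL6 stand high in TNFα and IL-1β alone, CXCL2 moves least, and all 6 genes but CXCL5 have their lowest mean in C5a.

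TNFα is the classical activator of NF-κB in endothelium. All 6 chemokine genes rose in TNFα against Control, while 27.5% of all genes tested were called higher. The median over the 6 was 3.24 on the log2 scale, and that over all genes was -0.01. CXCL6 rose furthest, by 52.3-fold, and CXCL2 least, by 1.65-fold.
CXCL8 measured 108, 85.6 and 149 CPM in the Control libraries and 1415, 2016 and 1598 CPM in TNFα, a log2 fold change of 3.88 ± 0.19 (edgeR, adjusted p = 1.14e-08). CXCL6, which acts on the same receptor pair, went from 4.12, 4.54 and 4.66 CPM to 234, 244 and 220 CPM, a log2 fold change of 5.71 ± 0.09 (adjusted p = 5.57e-33). For both, all 3 TNFα libraries lay far above the Control range.
Among the ligands of CXCR2, CXCL5 rose from 1.96, 1.23 and 1.80 CPM to 26.5, 28.8 and 26.6 CPM, by 4.04 ± 0.14 (adjusted p = 1.29e-23). For CXCL1 the Control libraries stood at 129, 123 and 147 CPM and the TNFα libraries at 596, 741 and 666 CPM, a difference of 2.33 ± 0.11 (adjusted p = 2.08e-09). CXCL3 went from 4.92, 3.20 and 4.95 CPM to 21.0, 34.8 and 22.7 CPM, a rise of 2.60 ± 0.23 (adjusted p = 2.18e-07). CXCL2 had the smallest rise and groups that nearly touched: 121, 87.2 and 131 CPM in Control against 140, 251 and 169 CPM in TNFα, or 0.73 ± 0.21 (adjusted p = 0.0118).
TNFα library 2 was the highest of its group for all 6 genes. The call of CXCL2 was lost when libraries were scaled by total counts (log2 0.45, adjusted p = 0.0716) and when only the TNFα and Control libraries were fitted (adjusted p = 0.113). Scaling by total counts moved the median of all genes in this comparison to -0.29, and the share of higher genes among those called from 52.1% to 22.7%.

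IL-1β signals through MyD88 and also activates NF-κB. Against Control, 5 of the 6 genes rose, beside 24.0% of all genes tested called higher, and the median over the 6 was 3.32 against -0.01 over all genes. CXCL6 rose 89.6-fold and CXCL5 40.5-fold, and CXCL2 did not pass.
The CXCL6 libraries under IL-1β held 414, 392 and 382 CPM, a log2 fold change of 6.49 ± 0.09 over Control (adjusted p = 4.28e-34). CXCL5 reached 73.3, 67.3 and 60.8 CPM, a rise of 5.34 ± 0.13 (adjusted p = 1.58e-27). These are the highest levels of both genes in the series.
CXCL1 stood at 1298, 1265 and 1260 CPM, 3.27 ± 0.11 above Control (adjusted p = 1.87e-10), and CXCL8 at 1210, 1171 and 1135 CPM, 3.37 ± 0.19 above it (adjusted p = 5.66e-08). CXCL3 reached 25.3, 21.1 and 23.1 CPM, a rise of 2.42 ± 0.23 (adjusted p = 7.46e-07). CXCL2 stayed inside the Control range, at 123, 120.2 and 121 CPM, with a log2 difference of 0.11 ± 0.21 (adjusted p = 0.692). IL-1β library 1 was the highest of its group for all 6 genes.

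Set directly against TNFα, IL-1β gave a different mixture of the same ligands. CXCL1, CXCL5 and CXCL6 were higher in IL-1β (19.9% of all genes tested were called higher), CXCL2 and CXCL8 were lower (21.4% called lower), and CXCL3 did not pass. CXCL5 differed most, by 1.31 ± 0.09 on the log2 scale (adjusted p = 8e-15), followed by CXCL1 at 0.94 ± 0.10 (adjusted p = 1.15e-05) and CXCL6 at 0.78 ± 0.06 (adjusted p = 2.19e-13).
CXCL8 was 1.42-fold lower in IL-1β (log2 -0.51 ± 0.17, adjusted p = 0.0344) and CXCL2 1.53-fold lower (-0.61 ± 0.20, adjusted p = 0.0336), and for neither gene did any IL-1β library reach into the TNFα range. CXCL3 differed by -0.17 ± 0.19 (adjusted p = 0.497).
The lower calls of CXCL2 and CXCL8 were not stable. Both were lost with total-count scaling (adjusted p = 0.103 and 0.139), with no low-count filter, in a fit of these groups alone, without TNFα library 2 (adjusted p = 0.139 and 0.140) and without any one of the IL-1β libraries, and that of CXCL8 also without TNFα library 3 (adjusted p = 0.0585).

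C5a is the complement fragment that acts on the receptor C5AR1. In C5a the chemokine genes were lower than in Control: 5 of 6 fell, beside 10.8% of all genes tested called lower, with a median over the 6 of -1.50 against 0.00 over all genes. CXCL3 was 5.94-fold and CXCL2 5.85-fold lower.
CXCL2 held 21.0, 19.6 and 16.9 CPM under C5a, against 87.2 CPM in the lowest Control library, a log2 fold change of -2.55 ± 0.24 (adjusted p = 2.32e-05). CXCL3 was down to 0.517, 0.635 and 1.00 CPM, which is 10, 12 and 20 counts, a log2 fold change of -2.57 ± 0.41 (adjusted p = 3.97e-04). The depth behind CXCL3 in C5a is thus thin, while that of CXCL2, at 337 to 407 counts, is not.
CXCL8 measured 34.5, 32.8 and 33.2 CPM, 3.38-fold below Control (log2 -1.76 ± 0.20, adjusted p = 9.52e-05). CXCL1 measured 58.5, 54.3 and 55.5 CPM, 2.36-fold below it (-1.24 ± 0.11, adjusted p = 9.36e-06). CXCL6 fell from a level that was already low to 3.00, 2.27 and 2.06 CPM (-0.85 ± 0.16, adjusted p = 1.08e-04). CXCL5, at 1.40, 1.16 and 0.953 CPM, overlapped Control and did not pass (-0.49 ± 0.24, adjusted p = 0.145).

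Epinephrine acts on adrenergic receptors. It raised 4 of the 6 genes (13.5% of all genes tested were called higher), and the median over the 6 was 1.11 against 0.01. The 4 were the members of the CXCL1, CXCL2 and CXCL3 group together with CXCL8.
CXCL3 rose most, to 16.7, 19.4 and 24.5 CPM, 4.69-fold over Control (log2 2.23 ± 0.23, adjusted p = 7.20e-06). CXCL8 rose to 337, 380 and 396 CPM, 3.28-fold (1.71 ± 0.18, adjusted p = 4.57e-05), and CXCL1 to 250, 302 and 333 CPM, 2.23-fold (1.16 ± 0.11, adjusted p = 8.53e-06). In all 3 the epinephrine libraries lay above every Control library.
CXCL2 reached its highest mean of the series here, at 207, 254 and 238 CPM, or 2.07-fold over Control (1.05 ± 0.20, adjusted p = 0.00316). The pair that TNFα and IL-1β raised most did not pass: CXCL5 measured 2.15, 1.81 and 1.51 CPM (0.14 ± 0.22, adjusted p = 0.709) and CXCL6 4.04, 6.27 and 5.78 CPM (0.28 ± 0.13, adjusted p = 0.123). Without epinephrine library 1, CXCL6 passed (adjusted p = 0.00707), its only call here in 15 alternative settings of the processing. Over these, its log2 difference ran from 0.17 to 0.45.
Against C5a, 5 of the 6 were higher in epinephrine, beside 8.98% of all genes tested. The ratios were 27.9-fold for CXCL3, 12.1-fold for CXCL2, 11.1-fold for CXCL8, 5.26-fold for CXCL1 and 2.19-fold for CXCL6. CXCL5 differed by 0.63 ± 0.23 on the log2 scale (adjusted p = 0.0586), and it passed without epinephrine library 3 (adjusted p = 0.0400). In all it was called in 2 of 15 alternative settings.

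Vesicles of unstimulated cells were compared with no vesicles by setting EV-Control against Control. Higher levels were found for 4 of the 6 genes (12.1% of all genes tested were called higher, 9.80% lower). They were CXCL1, CXCL2, CXCL3 and CXCL8, the set that rose in epinephrine. The median over the 6 was 0.68 on the log2 scale, against -0.01 over all genes.
CXCL3 measured 19.2, 14.1 and 10.5 CPM in EV-Control, 3.34-fold over Control (1.74 ± 0.26, adjusted p = 3.62e-05). CXCL8 measured 216, 200.2 and 205 CPM, 1.81-fold over it (0.86 ± 0.18, adjusted p = 9.61e-04). Neither overlapped the Control libraries.
CXCL1 and CXCL2 had smaller differences that depended on single libraries. CXCL1 measured 316, 201 and 139 CPM, of which the last lies inside the Control range, with a log2 difference of 0.71 ± 0.18 (adjusted p = 0.00628) that was not called without EV-Control library 1 (adjusted p = 0.0745). CXCL2 measured 147, 180 and 202 CPM, in the reverse order of CXCL1, with a difference of 0.64 ± 0.19 (adjusted p = 0.0153) that was not called without Control library 2 (adjusted p = 0.0979) or EV-Control library 3 (adjusted p = 0.0767).
CXCL5 (0.13 ± 0.27) and CXCL6 (-0.01 ± 0.15) did not pass, with adjusted p of 0.796 and 0.979. The labels do not say whether the vesicle and the direct groups were cultured at the same time. An effect of the vesicles and a difference between culture runs therefore cannot be told apart in this comparison.

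EV-TNFα and EV-IL-1β were each compared with EV-Control, which they share. In each, 1 of the 6 genes was lower, and it was CXCL3 both times, beside 7.42% of all genes called lower in EV-TNFα and 8.14% in EV-IL-1β (5.90% and 6.49% were called higher). The other 5 did not pass, CXCL8, CXCL5 and CXCL6 included, which the stimuli themselves had raised.
CXCL3 measured 6.40, 6.54 and 5.62 CPM in EV-TNFα, 2.35-fold below EV-Control (-1.23 ± 0.23, adjusted p = 0.00196). In EV-IL-1β it measured 5.08, 5.95 and 6.27 CPM, 2.52-fold below EV-Control (-1.33 ± 0.23, adjusted p = 0.00114). All 6 libraries were under the lowest EV-Control library, at 10.5 CPM.
CXCL8 measured 151, 223 and 191 CPM in EV-TNFα and 160, 179 and 226 CPM in EV-IL-1β, around the EV-Control values, with a log2 difference of -0.14 ± 0.16 in each (adjusted p = 0.679 and 0.660). CXCL1 measured 154, 166 and 180 CPM and 159, 151 and 160.1 CPM, within the wide EV-Control range (-0.39 ± 0.23, adjusted p = 0.330, and -0.48 ± 0.23, adjusted p = 0.218). Without EV-Control library 3, the lowest of its group for this gene, CXCL1 was called lower in both (adjusted p = 0.0273 and 0.0137). In each comparison this was the only call of CXCL1 in 15 alternative settings. Over these, its log2 difference ran from -0.63 to -0.03 in EV-TNFα and from -0.72 to -0.12 in EV-IL-1β.
CXCL2 differed by -0.02 ± 0.16 in EV-TNFα and -0.09 ± 0.16 in EV-IL-1β. CXCL6 differed by -0.43 ± 0.20 and -0.27 ± 0.20, and CXCL5 by -0.74 ± 0.35 and -0.36 ± 0.34, at 15 to 49 counts per library in the 3 groups. Without EV-Control library 2, CXCL5 was called lower in EV-TNFα (adjusted p = 0.0324). That was its only call there in 14 alternative settings, over which the log2 difference ran from -1.09 to -0.24.

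With vesicles of C5a-treated cells the chemokine genes were not distinguished from EV-Control. edgeR called 0 of the 6, as did DESeq2, and 0 had an unadjusted p under 0.05, in a comparison where 0.0503% of all genes tested (8 genes) were called in either direction. CXCL2 came nearest, with 203, 242 and 216 CPM all above the EV-Control libraries (0.32 ± 0.16, adjusted p = 0.687). CXCL6, at 3.50, 3.36 and 3.61 CPM, lay below them (-0.34 ± 0.20, adjusted p = 0.740). The remaining differences were 0.22 ± 0.20 for CXCL3, 0.03 ± 0.16 for CXCL8, -0.05 ± 0.33 for CXCL5 and -0.15 ± 0.23 for CXCL1. Over all genes, the number called in this comparison rose to 175 without EV-Control library 3.

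EV-Epinephrine lowered 4 of the 6 genes against EV-Control, beside 10.5% of all genes tested called lower (9.12% higher), with a median over the 6 of -1.29 against 0.01. The 4 were CXCL1, CXCL2, CXCL3 and CXCL8, which epinephrine itself had raised.
CXCL3 measured 1.50, 3.02 and 1.69 CPM in EV-Epinephrine, 7.04-fold below EV-Control (-2.82 ± 0.27, adjusted p = 3.96e-06), from 29 to 53 counts per library. CXCL8 measured 70.7, 62.3 and 69.1 CPM, 3.07-fold below it (-1.62 ± 0.17, adjusted p = 6.41e-05), and CXCL2 59.6, 68.9 and 72.7 CPM, 2.63-fold below it (-1.40 ± 0.17, adjusted p = 1.62e-04). For these 3 genes every EV-Epinephrine library was below every EV-Control and every Control library.
CXCL1 was the most even of all, at 95.8, 96.4 and 95.3 CPM, 2.27-fold below EV-Control (-1.19 ± 0.24, adjusted p = 0.00461). Its call was lost in a fit of these groups alone (adjusted p = 0.103). CXCL5 (-0.62 ± 0.35, adjusted p = 0.234) and CXCL6 (-0.51 ± 0.20, adjusted p = 0.0694) did not pass. Both passed without EV-Control library 2 (adjusted p = 0.0457 and 0.0445), and CXCL6 also in the fit of all 30 libraries (adjusted p = 0.0255). CXCL5 was called in 1 of 14 alternative settings and CXCL6 in 2 of 15. Over these, the log2 difference ran from -0.97 to -0.12 for CXCL5 and from -0.63 to -0.36 for CXCL6.
EV-Epinephrine was also lower than EV-TNFα in 3 of the 6 genes, beside 3.14% of all genes tested. The differences were -1.58 ± 0.30 for CXCL3 (adjusted p = 0.00597), -1.48 ± 0.17 for CXCL8 (adjusted p = 4.47e-04) and -1.37 ± 0.17 for CXCL2 (adjusted p = 6.47e-04). CXCL1 differed by -0.79 ± 0.24 and was not called (adjusted p = 0.0947), although its libraries did not overlap and it passed with DESeq2 (adjusted p = 0.0109). In all it was called in 3 of 15 alternative settings.

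**Figure D2:**
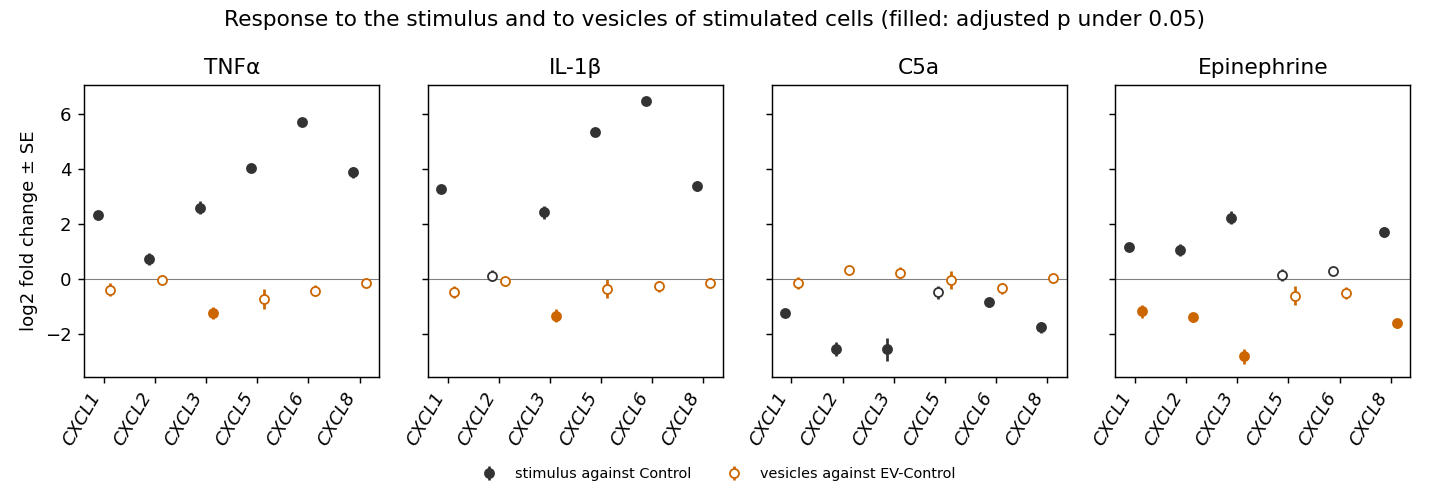
Log2 fold change ± SE of each gene for the stimulus against Control (black) and for vesicles of stimulated cells against EV-Control (orange), filled where the adjusted p was under 0.05. The vesicle responses do not follow the direct ones: for epinephrine CXCL1, CXCL2, CXCL3 and CXCL8 lie above 0 in black and below 0 in orange.

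Whether cells answered a stimulus and the vesicles made under it differently was tested as the vesicle response minus the direct response, in the fit of all 30 libraries. For TNFα the difference was lower for 6 of 6 genes (23.4% of all genes tested were called lower), from -6.13 ± 0.20 for CXCL6 to -0.75 ± 0.26 for CXCL2. The value of CXCL2 (adjusted p = 0.0233) was not called with total-count scaling (adjusted p = 0.135), with no low-count filter (0.0541), or without Control library 2 (0.0772), TNFα library 2 (0.108), EV-Control library 3 (0.0684) or EV-TNFα library 1 (0.0701).
For IL-1β it was lower for 5 of 6, beside 18.3% of all genes, from -6.74 ± 0.21 for CXCL6 to -3.50 ± 0.25 for CXCL8, with CXCL2 at -0.20 ± 0.26 (adjusted p = 0.615). For C5a it was higher for 4 of 6, beside 5.87% of all genes, and largest for CXCL2 at 2.88 ± 0.29 and CXCL3 at 2.80 ± 0.50.
For epinephrine it was lower for 5 of 6, beside 12.5% of all genes. CXCL3 had the largest difference, -5.04 ± 0.40 (adjusted p = 2.14e-09), followed by CXCL8 at -3.32 ± 0.25, CXCL2 at -2.44 ± 0.27 and CXCL1 at -2.33 ± 0.26. CXCL6 passed at -0.78 ± 0.22 (adjusted p = 0.00559), and CXCL5 did not at -0.74 ± 0.39 (adjusted p = 0.177), except without EV-Control library 2 (adjusted p = 0.0177). This exception was the only call of CXCL5 in 19 alternative settings, over which its value ran from -1.10 to -0.26.

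The make-up of the pool was described per length, as each gene's share of the summed CPM per kb of the 6 genes in a library. Shares within a library do not depend on how libraries were scaled to each other. The sum was 233 ± 38.5 CPM per kb in Control, 1506 ± 236 in TNFα, 1798 ± 43.2 in IL-1β, 72.7 ± 3.28 in C5a and 558 ± 60.8 in epinephrine (SD, n = 3). It was 387 ± 56.4 in EV-Control, 332 ± 40.5 in EV-TNFα, 319 ± 34.4 in EV-IL-1β, 401 ± 15.5 in EV-C5a and 151 ± 3.95 in EV-Epinephrine.
CXCL1 was the largest share in Control (44.5% ± 3.71), IL-1β (54.7% ± 0.475) and C5a (59.5% ± 1.08) and epinephrine (40.7% ± 1.64), and CXCL8 was the largest in TNFα, at 48.8% ± 1.27 against 21.3% ± 2.50 in Control. CXCL2 made up 32.2% ± 2.39 in Control, 8.13% ± 1.20 in TNFα, 4.51% ± 0.0674 in IL-1β, 17.6% ± 1.36 in C5a and 27.9% ± 1.42 in epinephrine. CXCL6 made up 0.889% ± 0.155 in Control, 7.17% ± 0.958 in TNFα and 10.1% ± 0.176 in IL-1β. CXCL3 and CXCL5 each stayed at or below 1.90% in every group mean. In the vesicle groups CXCL1 made up from 37.7% to 49.0%, CXCL2 from 29.6% to 36.7% and CXCL8 from 19.6% to 25.8% in group means. EV-Control libraries differed widely in CXCL1, from 31.5% to 54.4%.

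**Figure D3:**
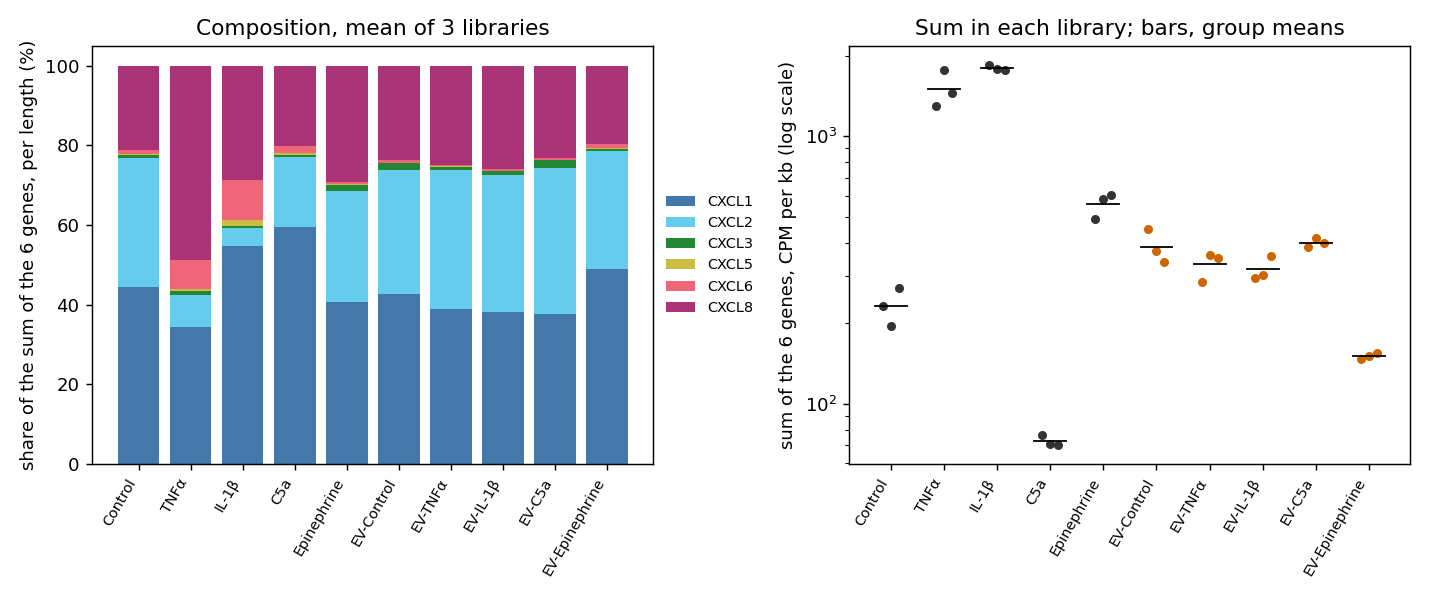
Left, mean share (%) of each gene in the summed CPM per kb of the 6 genes, by group. Right, that sum in each library on a log scale, with group means as bars. The share of CXCL2 is smallest in IL-1β and TNFα, where the sum is highest. It is also smaller in C5a (17.6%) than in Control (32.2%), and C5a has the lowest sum, at 72.7 CPM per kb.

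Across the 10 groups the genes differed in how far they moved. The highest group mean exceeded the lowest by 162-fold for CXCL6, 61.2-fold for CXCL5, 50.1-fold for CXCL8, 36.5-fold for CXCL3, 22.7-fold for CXCL1 and 12.1-fold for CXCL2. The lowest mean was that of C5a for every gene but CXCL5, whose lowest was EV-TNFα.
CXCL1 was ordered IL-1β, TNFα, epinephrine, EV-Control, EV-C5a, EV-TNFα, EV-IL-1β, Control, EV-Epinephrine and C5a from high to low, and the neighbours from epinephrine to EV-IL-1β overlapped in turn. CXCL8 was ordered TNFα, IL-1β, epinephrine, EV-C5a, EV-Control, EV-TNFα, EV-IL-1β, Control, EV-Epinephrine and C5a, with overlaps between neighbours from EV-C5a to EV-IL-1β. CXCL3 began TNFα, IL-1β, epinephrine, EV-C5a and EV-Control, which overlapped in turn. It went on with EV-TNFα and EV-IL-1β, which overlapped, and then Control, EV-Epinephrine and C5a, which did not.
CXCL2 began with epinephrine, EV-C5a, TNFα, EV-Control, EV-TNFα and EV-IL-1β, each overlapping the next. IL-1β and Control then overlapped each other, and EV-Epinephrine and C5a stood apart at the bottom. For CXCL5 and CXCL6, IL-1β and TNFα stood apart at the top in that order, and each of the other 8 groups overlapped the next one down.

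As a description over the 10 group means of log2 CPM, which share their libraries and depth, CXCL5 and CXCL6 were the most alike pair of the 15 (Pearson's r = 0.995), followed by CXCL1 and CXCL8 (r = 0.966). CXCL2 was least like CXCL5 (r = 0.177) and CXCL6 (r = 0.205) and most like CXCL3 (r = 0.859). For CXCL5 and CXCL6 only IL-1β and TNFα stood apart from the other groups. Their r, with each other and with the genes below, thus rest largely on those groups.
Among 11050 other genes, the 3 most like CXCL1 were PTGS2 (r = 0.977), CSF3 (0.969) and CEBPZ (0.953). CXCL2 was nearest to NFKBIZ (0.973), IER3 (0.972) and YBX3 (0.939), and CXCL3 to CCL20 (0.984), PNP (0.982) and ZC3H12A (0.945). CXCL5 and CXCL6 both had SLC11A2 first (0.998 and 0.991) and IRAK3 second (0.986 and 0.990), followed by TNFAIP6 (0.983) for CXCL5 and SAA2 (0.989) for CXCL6. CXCL8 was nearest to IL1B (0.960), PPIF (0.943) and ZC3H15 (0.940).

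Regulators of transcription at these genes were read from a list of 16 that holds the NF-κB subunits and inhibitors, C/EBP factors and AP-1 subunits. In TNFα 14 of 16 rose (27.5% of all genes higher, 25.3% lower), with a median of 1.23 over the list, and in IL-1β 11 rose and 1 fell (24.0% and 22.6% of all genes), with a median of 0.63. The largest rise in both was that of TNFAIP3, whose product A20 restrains NF-κB signalling, at 4.45 ± 0.21 and 1.51 ± 0.20 on the log2 scale, and the gene that fell in IL-1β was the AP-1 subunit JUNB (-0.78 ± 0.10). Between the cytokines, 13 of 16 were lower and 1 higher in IL-1β than in TNFα (21.4% and 19.9% of all genes), with TNFAIP3 at -2.95 ± 0.19 and CEBPD at 0.68 ± 0.08.
In C5a 7 fell and 1 rose (10.8% and 11.8% of all genes). NFKBIZ, which encodes the nuclear NF-κB cofactor IκBζ, fell most (-2.31 ± 0.17), and JUN rose (0.85 ± 0.20). Epinephrine raised 8 and lowered 1 (13.5% and 11.8% of all genes), TNFAIP3 by 2.05 ± 0.20 and RELB by -0.32 ± 0.11, and only 4 rose when epinephrine and Control were fitted alone.
EV-Control had 10 of 16 above Control (12.1% of all genes higher), with TNFAIP3 at 2.32 ± 0.22. Against EV-Control, 9 fell in EV-TNFα (7.42% of all genes), 10 in EV-IL-1β (8.14%) and 11 in EV-Epinephrine (10.5%), with TNFAIP3 the largest fall in each (-1.54 ± 0.23, -1.54 ± 0.23 and -3.06 ± 0.25). These counts were 4, 4 and 7 when only the groups compared were fitted. FOS rose in EV-TNFα (2.04 ± 0.58) and EV-IL-1β (2.22 ± 0.58), and its calls, like that of JUN in C5a, were lost in those smaller fits.

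A list of 10 regulators of the decay of these mRNAs was mixed in its changes. ZC3H12A, the ribonuclease Regnase-1 that cleaves cytokine and chemokine mRNAs, had the largest rise in TNFα (1.67 ± 0.09) and IL-1β (0.85 ± 0.09) and the largest fall in C5a (-2.39 ± 0.11), EV-TNFα (-1.38 ± 0.25), EV-IL-1β (-1.43 ± 0.25) and EV-Epinephrine (-1.97 ± 0.26). In TNFα 4 of 10 rose (27.5% of all genes) and the others did not pass, whereas 6 were called lower with total-count scaling. In IL-1β 6 rose and 2 fell (24.0% and 22.6% of all genes), and ZFP36, whose product tristetraprolin binds AU-rich elements, fell by 1.49 on the log2 scale (-1.49 ± 0.23). In C5a 3 rose and 4 fell (11.8% and 10.8% of all genes), with ELAVL1, which encodes the stabilising protein HuR, at 0.30 ± 0.05. In epinephrine 2 rose and 2 fell, close to the shares over all genes (13.5% and 11.8%), with RC3H1 at 0.38 ± 0.08 and ZFP36L2 at -0.97 ± 0.09. In EV-Control against Control 4 of 10 rose (12.1% of all genes), ZC3H12A by 0.99 ± 0.19, and with total-count scaling 2 rose and 1 fell.

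Among 10 carriers and enzymes of heparan sulphate, which holds chemokines on the endothelial surface, 3 rose and 6 fell in TNFα. Of all genes 27.5% rose there, so that the count of rises is near the background, and 25.3% fell. EXT1, a polymerase of the chain, was the largest rise (1.13 ± 0.05), and the syndecan SDC1 the largest fall (-1.54 ± 0.07), from 87.7 ± 7.78 CPM in Control to 30.1 ± 2.36 in TNFα (SD, n = 3). In IL-1β 2 rose and 6 fell (24.0% and 22.6% of all genes), with the syndecan SDC4 at 0.71 ± 0.05 and SDC1 at -0.77 ± 0.06. SDC4 also rose in EV-Control against Control (0.44 ± 0.07), where 4 of 10 rose and 1 fell (12.1% and 9.80% of all genes), and it was the largest fall in EV-TNFα (-0.44 ± 0.09), EV-IL-1β (-0.45 ± 0.09) and EV-Epinephrine (-0.66 ± 0.09).
The receptors CXCR1 and CXCR2 had at most 1 count in any library. ACKR1, the endothelial receptor that binds and transports these chemokines without signalling through G proteins, was scarce at 1.19 ± 0.545 CPM in Control and 2.77 ± 0.943 CPM in TNFα, a rise of 1.21 ± 0.33 (adjusted p = 0.00243).

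The gene cluster itself was used to see whether changes ended at the members. Its span and the 500 kb on either side hold 12 other protein-coding genes, 3 of them inside the span, and 5 of the 12 had enough counts to be tested in the direct groups. The 3 inside are the platelet chemokine genes PPBP, PF4 and PF4V1. PPBP and PF4 had 0 counts in all 30 libraries, which allows up to 3 counts per library for each, and PF4V1 had at most 15.
Outside the span, EREG, 624.6 kb beyond the start of CXCL8 and encoding the EGF receptor ligand epiregulin, rose in TNFα (3.56 ± 0.28), IL-1β (1.03 ± 0.33) and epinephrine (1.25 ± 0.32). It fell in C5a (-1.96 ± 0.48), EV-TNFα (-1.72 ± 0.20), EV-IL-1β (-1.69 ± 0.20) and EV-Epinephrine (-2.90 ± 0.23), and was higher in EV-Control than in Control (2.11 ± 0.26). Its mean level was low, from 0.461 CPM in C5a to 21.7 CPM in TNFα.
AREG encodes a ligand of the same receptor, 704.6 kb from the start of CXCL8. It fell in TNFα (-1.11 ± 0.11), IL-1β (-1.03 ± 0.11), C5a (-2.63 ± 0.13) and epinephrine (-0.95 ± 0.11). AREG was also lower than EV-Control in EV-TNFα (-0.59 ± 0.11), EV-IL-1β (-1.05 ± 0.11), EV-C5a (-0.58 ± 0.11) and EV-Epinephrine (-0.95 ± 0.11). EREG did not pass in EV-C5a (-0.33 ± 0.18, adjusted p = 0.695), nor AREG in EV-Control against Control (-0.21 ± 0.11, adjusted p = 0.171). The neighbour nearest to CXCL2, MTHFD2L, at 373.7 kb, fell in C5a (-0.62 ± 0.13, adjusted p = 6.18e-04). It did not pass in TNFα (-0.10 ± 0.13), IL-1β (0.20 ± 0.12) or epinephrine (-0.33 ± 0.13), with adjusted p of 0.529, 0.198 and 0.0556. ANKRD17, on the other side of the cluster, rose in TNFα (0.33 ± 0.08, adjusted p = 0.00128) and IL-1β (0.43 ± 0.07, adjusted p = 1.01e-04). EPGN, the remaining tested neighbour, did not pass in any of the 4 stimuli against Control.

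**Figure D4:**
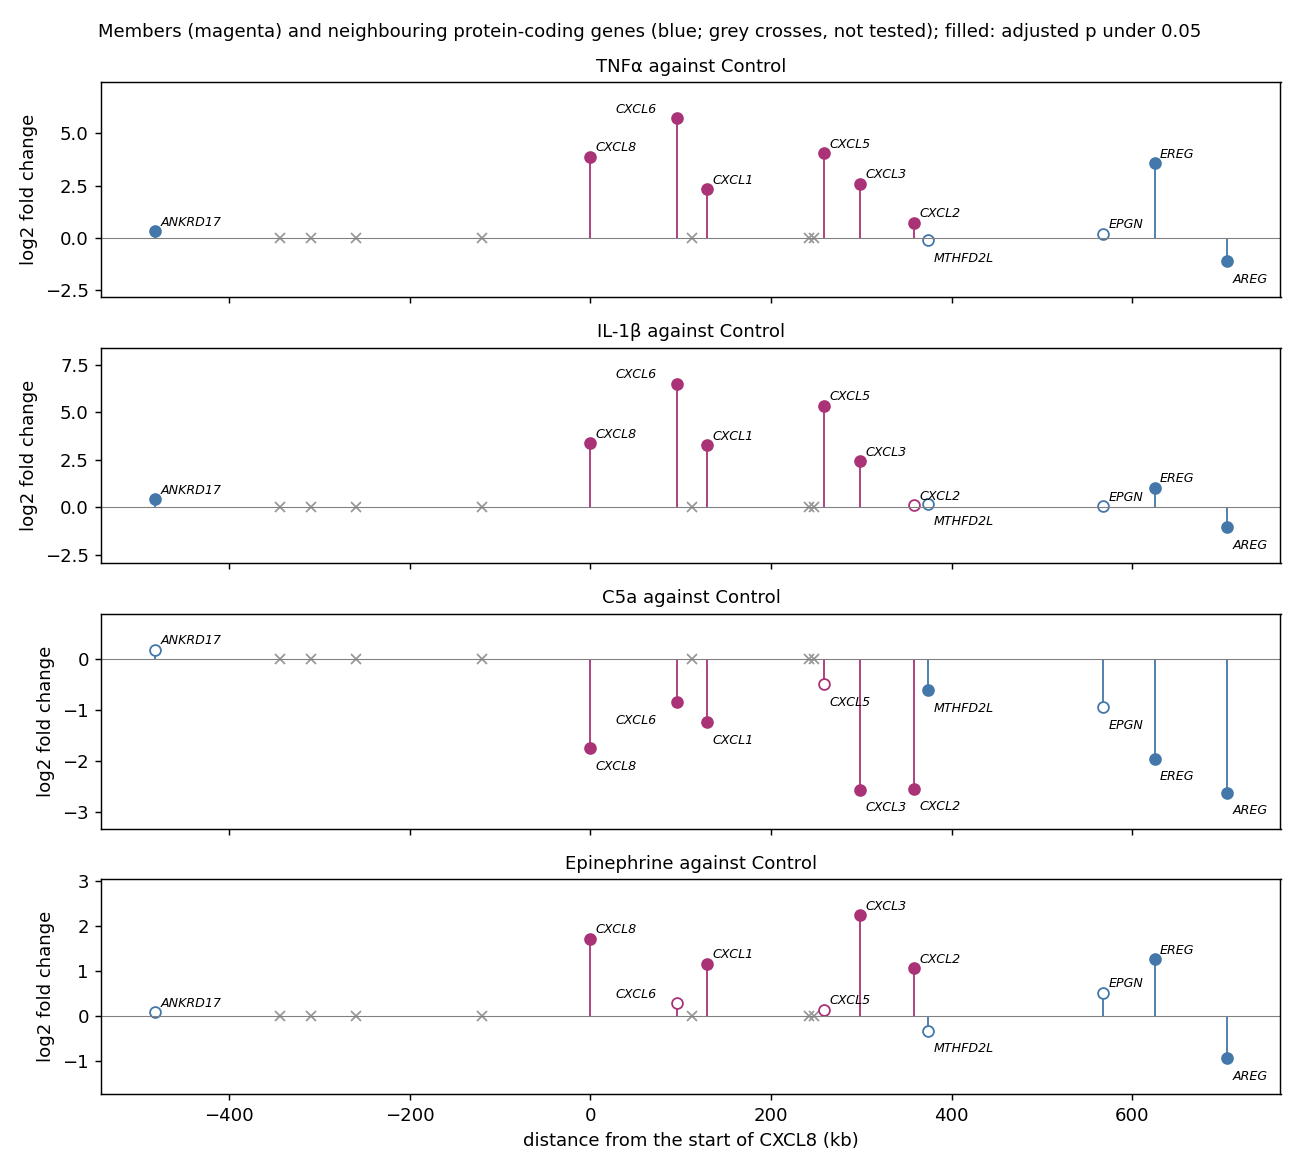
Log2 fold change against Control (vertical axis) of the 6 members in magenta and of neighbouring protein-coding genes in blue, by distance in kb from the start of CXCL8, with grey crosses for genes not tested. EREG moves in the direction of CXCL8 in all 4 panels, while AREG, the next gene along, is below 0 in each.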

How the data were processed

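RNA from 30 libraries of hCMEC/D3 cells was sequenced after RNeasy extraction and NEBNext Ultra library preparation, per the labels' protocols. The authors deposited 1 table of raw counts, a row for each Ensembl gene, with no normalization. The submitters' processing notes name FastQC, STAR, DESeq2, R 4.4.1 and the build hg38 without their roles. The counting program, annotation and use of strand are not given in the sources used here. Of 63147 lines, 4 without a gene ID (at most 0.0016% of a library) were left out. Another 2 had a gene ID but no count values on the line and were left out, and 3 repeats were dropped.

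Tests on the counts used edgeR 4.0.16 in R 4.3.3 (filterByExpr, TMM, robust quasi-likelihood test, two-sided, Benjamini-Hochberg at 0.05), tested on simulated data. Fits used the 15 direct libraries (15908 genes), the 15 vesicle libraries (15918) or all 30 (16691, for EV-Control against Control and the differences of responses). CPM use the factors of the last fit, and levels per kb use exon lengths of GENCODE 29. Promoters and motifs come from RefSeq. The SE and SD given hold the spread between libraries as well as counting error. The floor of 3 counts covers counting error only. Replicates of a group differed by more than sampling noise (chi-square per gene 2.04 to 12.9 in 30 pairs).

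The members and gene lists were chosen with earlier results of these data known. Named outside the members were the 3 genes most like each member (r over group means of log2 CPM, prior count 2, at least 5 CPM in some group) and the largest rise and fall of each list. MTHFD2L, ANKRD17, EPGN, PDGFRB and genes at 0 were named after their values were seen. Alternatives were other scalings, filters, DESeq2 1.42.0, a log2 threshold of 1, replicate blocks, other sets of libraries in a fit, leaving out each library and longest-transcript lengths. The same alternatives for the lists and for all genes were added after seeing the data.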

Additional observations from a re-analysis of the deposited data

Results flagged for a closer look

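In the fit of all 30 libraries, the vesicle response minus the direct response passed the test for 20 pairs of gene and stimulus (edgeR, adjusted p under 0.05). For TNFα the log2 differences were -2.72 for CXCL1, -0.75 for CXCL2, -3.82 for CXCL3, -4.76 for CXCL5, -6.13 for CXCL6 and -4.01 for CXCL8. For IL-1β they were -3.74 for CXCL1, -3.74 for CXCL3, -5.68 for CXCL5, -6.74 for CXCL6 and -3.50 for CXCL8. In all 11 pairs the direct response was a called rise. Of the vesicle responses, those of CXCL3 in EV-TNFα and EV-IL-1β were called falls, and the other 9 did not pass.
For C5a the differences were 1.09 for CXCL1, 2.88 for CXCL2, 2.80 for CXCL3 and 1.79 for CXCL8, where the direct response was a fall and the vesicle response did not pass. For epinephrine they were -2.33 for CXCL1, -2.44 for CXCL2, -5.04 for CXCL3, -0.78 for CXCL6 and -3.32 for CXCL8, and for all of these but CXCL6 the direct response was a called rise and the vesicle response a called fall. Each difference also holds the difference between EV-Control and Control, since both serve as baselines.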

How the results depend on the processing

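Of 254 counts of members called under the alternatives, 241 stayed within 1.5 times their value and 13 moved. For IL-1β against TNFα the 5 members called became 1 with a log2 threshold of 1, 3 with total-count scaling, 3 with no low-count filter, 3 in a fit of only these groups and 3 to 5 with single libraries left out. Libraries with the same number did not deviate together over all genes (r from -0.0393 to 0.0286). Whether the numbers pair libraries is not stated in the labels, and the main tests used no pairing. With the replicate number as a block, 3 were called for IL-1β against TNFα, and the block moved no other count of members by over 1.5 times. EV-Control against Control had 1 of 4 left at a log2 threshold of 1. Leaving out libraries gave 1 to 2 calls for EV-TNFα and for EV-IL-1β. The median share of CXCL8 over the groups became 26.2% with longest-transcript lengths.

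Of 1519 fold changes, 1446 kept direction and side of the threshold, 40 lost and 13 gained the call, and 20 turned sign, none of them called. With total-count scaling CXCL3 in IL-1β against TNFα became 0.0204. The others turned when 1 library was left out, with these ranges: CXCL3 in IL-1β against TNFα -0.31 to 0.0904, CXCL2 in IL-1β -0.0437 to 0.23, CXCL5 in epinephrine -0.0423 to 0.28, CXCL2 in EV-TNFα -0.14 to 0.10 and in EV-IL-1β -0.23 to 0.0236, CXCL5 in EV-IL-1β -0.72 to 0.14, CXCL1, CXCL5 and CXCL8 in EV-C5a -0.39 to 0.21, -0.40 to 0.45 and -0.0703 to 0.13, CXCL5 and CXCL6 in EV-Epinephrine against EV-TNFα -0.0291 to 0.26 and -0.26 to 0.0343, and CXCL5 and CXCL6 in EV-Control against Control -0.35 to 0.49 and -0.15 to 0.11. The causes were not tested.

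Total-count scaling moved the share of higher genes among those called from 51.5% to 38.7% in IL-1β, 48.1% to 76.1% in IL-1β against TNFα, 46.4% to 60.2% in EV-Epinephrine, 42.2% to 54.1% in EV-Epinephrine against EV-TNFα, 25% to 40% in EV-C5a, 55.3% to 42.6% in EV-Control against Control, and 47.7% to 76.7% and 48.1% to 62.3% in the TNFα and IL-1β differences of responses. It moved the median of all genes to 0.21 in IL-1β against TNFα and to 0.31 and 0.11 in those differences. Depth limits CXCL5 and CXCL3 most, with as few as 15 and 10 counts in a library.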
